A study of Mus musculus with 8 samples.

Results

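The axon guidance ligands and receptors were examined in the hippocampus of BTBR mice, an inbred strain without a corpus callosum, and in B6 controls. The genes were chosen by name: the class 3 to 7 semaphorins, plexins, neuropilins, Eph receptors, ephrins, Slits, Robos, netrins and netrin-G proteins, the netrin receptors Dcc and Unc5, and Draxin. They came to 71 of the 27373 gene names on the array, represented by 135 probes. Of these, 69 genes and 114 probes were bright enough to be tested.

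Hippocampal RNA of 4 BTBR T+ Itpr3tf/J mice and 4 C57BL/6J (B6) mice was measured on Agilent mouse arrays in a single color, each mouse on an array of its own. All animals were untreated 5-month-old males. For the BTBR samples the labels state a C57BL/6J strain background, whereas their genotype, source and title give BTBR, and they were analysed as BTBR. The comparison is between inbred strains that differ at many loci, so no difference can be assigned to a single gene. The tissue is whole hippocampus, in which fewer cells of a type and less RNA per cell cannot be told apart.

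Guidance cues are read by receptors on the growth cone, the motile tip of an axon. Secreted semaphorins bind neuropilins, which signal through plexins, while membrane-bound semaphorins bind plexins directly. Ephrins are held on the cell surface and bind Eph receptor tyrosine kinases, Slits repel axons through Robo receptors, and netrins attract through Dcc or repel through Unc5 receptors. Several of these molecules steer axons across the midline in the corpus callosum and the hippocampal commissure, and in the adult hippocampus they also act on dendritic spines and synapses.

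The arrays differed little in brightness. Median spot intensity was 378 to 489 and median local background 42 to 56, no spot was saturated, and 56.8 to 71.9% of probes were well above background on the B6 arrays against 61.9 to 71.5% on the BTBR arrays. Arrays of replicates 1 and 2 of both strains lay on 1 slide (slide 1), and those of replicates 3 and 4 on another (slide 2), so each slide held 2 arrays of each strain. Hippocampal markers were detected on all 8 arrays for most of the list (Map3k15 and Tdo2 on 7, Iyd and Nptx1 on none). Most striatal, thalamic and cortical layer markers were detected on all 8 arrays as well, so detection does not set the hippocampus apart from its neighbors. Markers of neighboring regions were uneven: the summed level of 11 thalamic markers was 14.33 to 14.59 (log2) on the B6 arrays and 17.32, 15.18, 14.34 and 14.44 on BTBR arrays 1 to 4, and that of 9 striatal markers was highest on B6 array 2 (17.26) and on BTBR arrays 1 and 2 (16.36 and 18.51), against 14.54 to 15.36 on the other arrays.

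Few axon guidance genes differed between the strains. Taking the brightest tested probe of each gene, 2 of 69 genes (2.90%) were up-regulated in BTBR mice and none was down-regulated (limma, adjusted p under 0.05), where 7.82% of all 18399 genes tested passed the same threshold, 3.49% as higher and 4.33% as lower. The genes called were Ntn4, which encodes a secreted netrin of basement membranes, and Sema3d, which encodes a secreted semaphorin. Both passed the filter on dim probes through the BTBR arrays (well above background on 0 and 2 of the B6 arrays), and with detection required on all 8 arrays neither was tested and no member was called. At an unadjusted p under 0.05 there were 14 of 69 genes (20.3%), near the 19.2% of all genes. The rank product, a test on the ranks of differences between arrays, called 2 other genes, Sema3b as higher and Sema5a as lower (2.90% of members, 4.34% of all genes). Unlike limma, the rank product does not set a difference against the spread of the probe between mice.

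Differences in either direction were of similar number in most families. Of the 69 genes, 32 had a higher and 37 a lower mean in BTBR mice, with a median difference of -0.03 on the log2 scale, where the median over all genes was 0.01. The median size of a difference, regardless of sign, was 0.20 for the members and 0.11 for all genes. On this scale, which adds an offset of 50 and so compresses the differences of dim probes, the extremes were Sema5a at -0.95 and Sema3b at 0.88, and 5 members (Sema5a, Sema3b, Epha4, Sema3e and Ntn4) differed by more than 0.5. With the processed signal of the scanner software, which has no such offset, 17 members did, some of them through values at background level. Ligands had a median difference of -0.0050 (18 higher and 18 lower of 36), and receptors of -0.05 (14 higher and 19 lower of 33).

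By family, the semaphorins had a median difference of 0.05 (12 of 20 higher), the plexins of -0.09 (4 of 9 higher), and the neuropilins of -0.23 (both lower). The Eph receptors had a median of -0.02 (6 of 13 higher) and the ephrins of -0.13 (2 of 7 higher). The Slits and Robos had a median of -0.05 (3 of 7 higher) and the netrin group of -0.03 (5 of 11 higher). No family other than the semaphorins and the netrin group had a gene called by limma at its brightest probe.

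**Figure D1:**
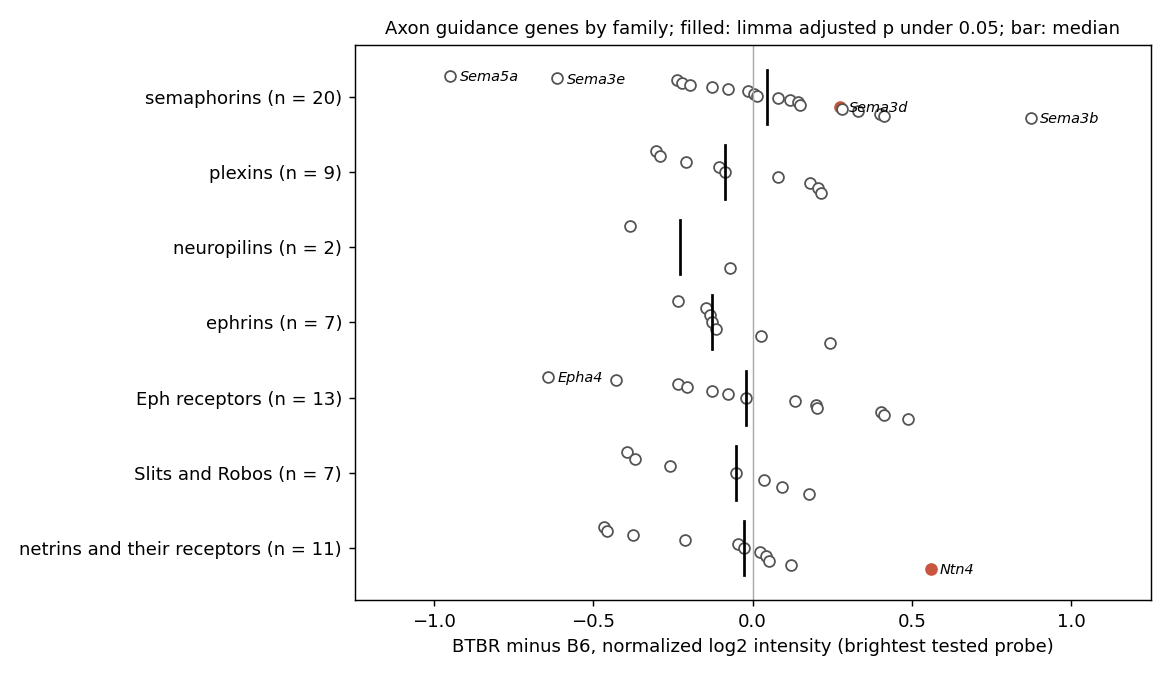
Difference between BTBR and B6 mice (log2, horizontal axis) for the brightest tested probe of each of 69 axon guidance genes, 1 row per family; filled points are the genes called by limma. The points of every family lie on both sides of 0 except the neuropilins, and all lie between -0.95 and 0.88.

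The arrays of the strains did not overlap for 5 of 69 genes, Ntn4, Sema3d, Plxnb1, Efna1 and Dcc, or 7.25%, against 14.4% of all genes. Counting every probe rather than 1 per gene, 4 of 114 member probes were called by limma (3.51%, against 7.61% of all probes). The rank product called 3 member probes (2.63%, against 3.94% of all probes). The limma calls added Nrp1 and Sema3c, each with a called probe that was not its brightest. Both probes passed the filter on dim probes through the B6 arrays alone, the strain in which they were higher. The first 30 of the 60 bases of the called probes and of the other probes of the same genes follow, to show which stretch of each transcript the result comes from. All lie on the plus strand of mm9, read 5′ to 3′ in lower case, and no base is singled out by a capital. Whether a probe lies in an exon, intron or UTR was not analysed here.
Ntn4 (NM_021320, chr10:93208482-93208540): cggccacgaggacgtaagaacgggcaaatt
Sema3d (NM_028882, chr5:12586136-12586195): gccacaaagtagatagaatgtaatggaatt
Sema3c, called (ENSMUST00000170348, chr5:17083479-17083538): tgctcacatcattctagacgggtggttggg
Sema3c, brightest (NM_013657, chr5:17234078-17234137): acgtaaagtcaagagtgactcataaagagc
Nrp1, called (AK040447, chr8:130884009-130884068): gtaaaccgtctgtgatcagtctgaagtatg
Nrp1, brightest (NM_008737, chr8:130992273-130992332): atggtgtctggacttatttcagactcccag
Nrp1, last probe (NM_008737, chr8:131026650-131026709): ttgtggatggtgtaaagttgaaaaaagata

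Ntn4 was the member with the smallest p at its brightest probe. Its log2 intensity was 7.72, 7.86, 7.88 and 7.74 on the B6 arrays and 8.48, 8.48, 8.25 and 8.23 on the BTBR arrays, and every BTBR array lay above every B6 array. The means were 7.80 ± 0.08 and 8.36 ± 0.14 (SD, n = 4 each), a difference of 0.56 (SE 0.08, 95% interval 0.37 to 0.75, limma adjusted p = 0.0032). All 4 BTBR arrays had the probe well above background and none of the B6 arrays did. With the B6 level raised to the detection limit, the BTBR mean was 1.37-fold higher, a value without an error estimate. On slide 1 the strains differed by 0.69 and on slide 2 by 0.43, where limma gave an adjusted p of 0.057. The size depends on how dim spots are treated: the difference was 2.28 with the processed signal, where it rests on B6 values at background level, and 0.32 in the deposited matrix, whose offset is not stated, so that its differences of dim probes are on another scale. Ntn4 was called in both.

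Sema3d passed the threshold narrowly. It was at 7.93, 7.87, 7.84 and 7.98 on the B6 arrays and 8.29, 8.21, 8.11 and 8.10 on the BTBR arrays, again without overlap. The difference was 0.27 (SE 0.07, 95% interval 0.12 to 0.43, limma adjusted p = 0.045), with means of 7.90 ± 0.07 and 8.18 ± 0.09. Of the B6 arrays 2 had the probe well above background, as did all 4 BTBR arrays. The call of Sema3d was lost in 14 of 21 alternatives. Among these were the omission of any 1 array other than BTBR replicate 3 (limma adjusted p = 0.055 to 0.14) and the deposited matrix (difference 0.16, limma adjusted p = 0.097). It was also lost within slide 1 (limma adjusted p = 0.055) and within slide 2 (limma adjusted p = 0.46). The difference was 1.51 with the processed signal.

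Nrp1 encodes neuropilin-1, the coreceptor through which secreted semaphorins and VEGF act, and it was measured by 3 probes that were all lower on average in BTBR mice, 1 of them called. The called probe read 9.33, 8.92, 8.81 and 9.11 in B6 mice and 7.83, 7.78, 8.26 and 8.13 in BTBR mice. The difference was -1.04 (SE 0.14, 95% interval -1.37 to -0.72, limma adjusted p = 0.0019), the largest in size of all member probes on this scale, and the rank product called it as well (pfp, its estimated share of false positives, 0.0040). All 4 B6 arrays and 2 of the BTBR arrays had it well above background. It thus passed the filter on dim probes through the B6 arrays alone. The difference was -2.66 with the processed signal and -0.70 in the deposited matrix.

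The brightest Nrp1 probe, 108.264 kb further along the chromosome, read 9.49, 9.26, 9.71 and 9.92 in B6 mice and 8.76, 8.75, 9.74 and 9.59 in BTBR mice. Here only BTBR arrays 1 and 2 lay below the B6 arrays, and the difference of -0.38 did not pass (limma adjusted p = 0.49). The last probe gave -0.52 (95% interval -0.96 to -0.08, limma adjusted p = 0.18), with 8.62, 8.65, 8.89 and 9.50 in BTBR mice against 9.25 to 9.72 in B6 mice. The called probe is annotated to a cDNA (AK040447) and the other 2 to the RefSeq transcript. Whether the strains differ in the probe's sequence, in transcript form or in transcript level was not tested.

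Sema3c, a secreted semaphorin known for guiding callosal axons, had the called probe at 7.97, 8.22, 8.16 and 7.99 in B6 mice and 7.80, 7.72, 7.81 and 7.75 in BTBR mice. The difference was -0.32 (SE 0.07, 95% interval -0.48 to -0.15, limma adjusted p = 0.034). This probe passed the filter on dim probes through the B6 arrays alone, with 3 B6 arrays and no BTBR array well above background. With the BTBR level raised to the detection limit, the B6 mean was 1.21-fold higher, a value without an error estimate. The call was lost in the deposited matrix (-0.17, limma adjusted p = 0.085) and without B6 replicate 2 or 3 or BTBR replicate 1, 2 or 4 (limma adjusted p = 0.067 to 0.11), and the difference was -1.68 with the processed signal. The brightest Sema3c probe, 150.599 kb away, read 8.20, 8.36, 8.39 and 8.48 in B6 mice and 8.004, 8.18, 8.06 and 8.23 in BTBR mice. Both probes were thus lower on average, and at the brightest the difference of -0.24 did not pass (95% interval -0.42 to -0.05, limma adjusted p = 0.14).

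**Figure D2:**
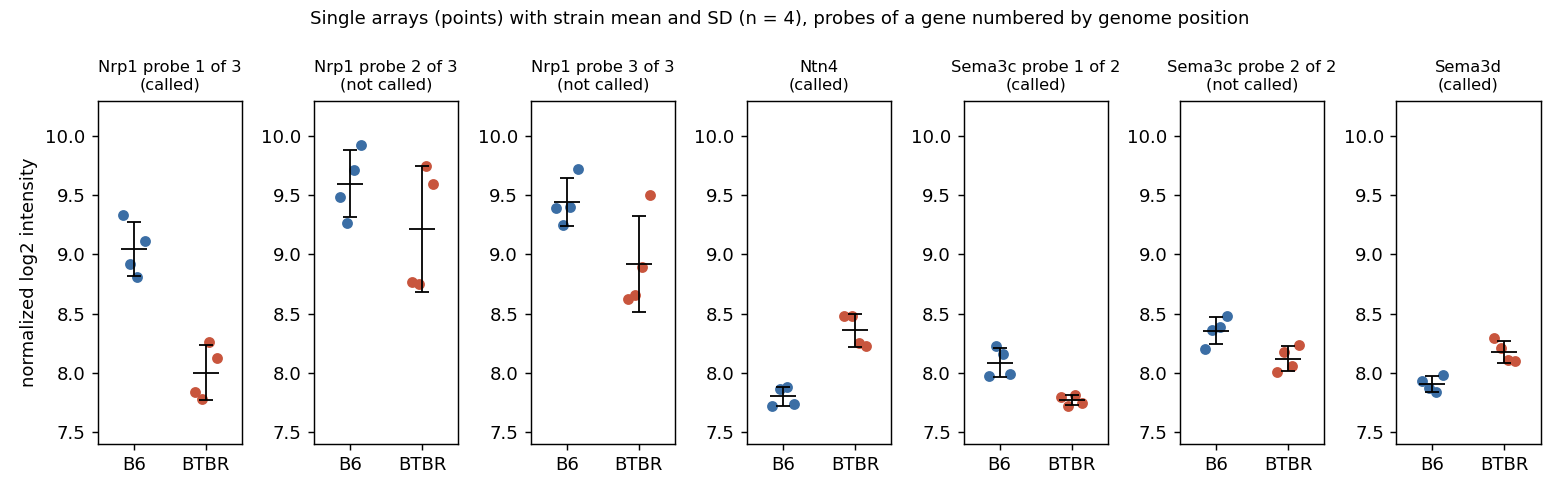
Log2 intensity on each array (points) with the strain mean (bar) for all tested probes of Ntn4, Sema3d, Nrp1 and Sema3c, the probes of a gene numbered by genome position. The BTBR points lie below the B6 points at Nrp1 probe 1, while at Nrp1 probe 2 BTBR arrays 3 and 4 reach the B6 range.

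Among the other secreted semaphorins, Sema3b showed the largest positive difference on this scale (1.06 with the processed signal). It measured 9.74, 10.44, 10.63 and 9.34 in B6 mice and 11.59, 11.37, 10.38 and 10.32 in BTBR mice. BTBR arrays 1 and 2 were above all B6 arrays, whereas BTBR arrays 3 and 4 lay within the B6 range. The mean difference of 0.88 (SE 0.37, 95% interval 0.03 to 1.72) was called by the rank product (pfp 0.024) and not by limma (adjusted p = 0.25). It was 1.39 on slide 1 and 0.36 on slide 2. With single arrays left out, the rank product called from 0 to 5 members, so its calls depend on single arrays.

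Sema3e, a secreted semaphorin that can bind Plxnd1 without a neuropilin, measured 13.09, 12.76, 12.91 and 13.40 in B6 mice and 11.76, 12.31, 12.96 and 12.67 in BTBR mice. BTBR array 3 lay within the B6 range and the other BTBR arrays below it (difference -0.61, limma adjusted p = 0.22). The other probes gave -0.73 and -0.09. Sema3a, the classical repellent ligand of Nrp1, was at 8.94, 9.51, 8.80 and 8.21 in B6 mice and 9.30, 9.72, 8.69 and 8.34 in BTBR mice, ranges that overlapped almost entirely (difference 0.15, limma adjusted p = 0.87). Sema3f, a ligand of Nrp2, had a difference of 0.33 (limma adjusted p = 0.67).

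Of the membrane-bound semaphorins, Sema5a, which carries thrombospondin repeats, had the largest negative difference of a brightest probe. It was at 13.94, 12.91, 13.39 and 13.56 in B6 mice and 12.56, 11.65, 12.95 and 12.84 in BTBR mice. BTBR array 3 (12.95) lay just above B6 array 2 (12.91), and every other BTBR array was below all of B6. The difference of -0.95 (SE 0.30, 95% interval -1.64 to -0.26) was called by the rank product (pfp 0.012) and not by limma (adjusted p = 0.11). A second, dim Sema5a probe gave -0.05.

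Sema6c, a transmembrane semaphorin, measured 8.71, 8.69, 8.81 and 8.87 in B6 mice and 9.25, 8.81, 9.27 and 9.40 in BTBR mice. Only BTBR array 2 lay within the B6 range. The difference was 0.41 (limma adjusted p = 0.088), which passed with the slide as a term in the model (limma adjusted p = 0.045) and without BTBR replicate 2 (limma adjusted p = 0.0043). A second Sema6c probe gave 0.12 (limma adjusted p = 0.51). The remaining class 4 to 7 semaphorins had differences between -0.20 and 0.40, and the remaining class 3 member one of -0.22, none of them called.

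The 9 plexins, the signaling receptors for semaphorins, were all detected and none was called. Plxnb1, the receptor of Sema4d, measured 11.09, 11.004, 11.06 and 11.11 in B6 mice and 11.28, 11.27, 11.35 and 11.23 in BTBR mice. Its arrays were the most closely grouped of the plexins and did not overlap between strains. The difference was 0.21 (SE 0.06, 95% interval 0.08 to 0.35, limma adjusted p = 0.060), it passed in the deposited matrix (limma adjusted p = 0.033), and the second probe of the gene gave 0.07.

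Plxna4, a receptor of secreted semaphorins in hippocampal and sympathetic neurons, had the largest difference among the plexins. It was at 13.81, 13.55, 13.80 and 14.15 in B6 mice and 13.09, 12.92, 14.09 and 14.001 in BTBR mice. BTBR arrays 1 and 2 were below all B6 arrays and BTBR arrays 3 and 4 were among the highest of all, giving -0.30 with a limma adjusted p of 0.64, and its other probes gave -0.31 and -0.08. Plxnd1, the receptor of Sema3e, overlapped between strains (B6 9.78 to 11.10, BTBR 10.06 to 11.14; difference 0.21, limma adjusted p = 0.81). The neuropilin Nrp2 measured 13.47, 13.19, 13.37 and 13.72 in B6 mice and 13.04, 12.61, 13.99 and 13.82 in BTBR mice, with BTBR arrays both below and above the B6 range (difference -0.07, limma adjusted p = 0.93). The remaining 6 plexins had differences between -0.29 and 0.18.

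None of the 13 Eph receptors was called. Epha4, which binds ephrins of both classes and is abundant on hippocampal neurons, had the largest difference on this scale, -0.64 (SE 0.25, 95% interval -1.21 to -0.08, limma adjusted p = 0.20). It measured 15.45, 14.92, 15.13 and 15.46 in B6 mice and 14.04, 14.25, 15.11 and 14.99 in BTBR mice. BTBR arrays 1 and 2 lay below every B6 array and BTBR arrays 3 and 4 within their range. A second probe gave -0.26.

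Other Eph A receptors also differed between the slides. Epha7 measured 12.92, 11.68, 11.93 and 12.28 in B6 mice and 11.09, 10.73, 12.88 and 12.38 in BTBR mice, giving -1.39 on slide 1 and 0.53 on slide 2 (-0.43 over both, 95% interval -1.52 to 0.66, limma adjusted p = 0.71). Epha5 gave -0.86 on slide 1 and 0.45 on slide 2, and Epha3 -0.10 and 0.90. For each of these 3 receptors the difference had opposite signs on the slides, so the pooled value averages values of unlike sign. The interaction between strain and slide did not pass for any of the 3 (limma adjusted p = 0.43 to 0.48). Opposite signs were found for 43.2% of all genes, with only 2 arrays of each strain on a slide. A second Epha7 probe gave -0.65 and 0.67 on the slides.

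Among the Eph B receptors, Ephb2, a receptor at hippocampal excitatory synapses, measured 10.59, 10.39, 10.63 and 10.86 in B6 mice and 10.78, 10.59, 11.62 and 11.45 in BTBR mice. Here BTBR arrays 3 and 4 were above all B6 arrays and arrays 1 and 2 were not. The difference was 0.49 (limma adjusted p = 0.30), and 0.78 on slide 2, where limma gave an adjusted p of 0.021. A second Ephb2 probe gave 0.01 over both slides and 0.04 on slide 2. Ephb1, known with Ephb2 for commissural axons, had a difference of 0.13 (95% interval -0.29 to 0.56, limma adjusted p = 0.78). The other 7 Eph receptors had differences between -0.23 and 0.41.

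Of the ephrins, Efna1, a membrane-anchored ligand of Eph A receptors, did not overlap between strains. It was at 9.30, 9.32, 9.54 and 9.34 in B6 mice and 9.20, 9.12, 8.96 and 9.29 in BTBR mice, and the gap between the strains, from 9.29 to 9.30, was narrow. The difference was -0.23 (95% interval -0.43 to -0.03, limma adjusted p = 0.19).

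Efna5, a ligand of Eph A receptors with graded expression in the forebrain, varied most among the ephrins. It measured 11.58, 12.57, 12.08 and 10.96 in B6 mice and 13.05, 12.83, 10.85 and 11.44 in BTBR mice. BTBR arrays 1 and 2 were the highest of all and BTBR array 3 the lowest, so the strains differed by 0.86 on slide 1 and by -0.38 on slide 2 (0.24 over both, 95% interval -0.95 to 1.44, limma adjusted p = 0.86). A second Efna5 probe gave 0.20 and -0.17 on the slides. Efnb3, a transmembrane ephrin of axons and midline cells, was close to even (difference -0.13, 95% interval -0.36 to 0.09, limma adjusted p = 0.54), and Efnb2 gave 0.03 at its brightest probe and 0.47 at another (limma adjusted p = 0.17). The other 3 ephrins tested had differences between -0.15 and -0.12. Efna2 stayed near background on every array and was not tested.

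The Slits and Robos gave no call. Slit1, a midline repellent that is also expressed in hippocampal neurons, measured 11.22, 10.86, 11.15 and 11.47 in B6 mice and 10.21, 10.21, 11.41 and 11.30 in BTBR mice, with BTBR arrays 1 and 2 below every B6 array and arrays 3 and 4 among them. The difference was -0.39 (95% interval -1.06 to 0.28, limma adjusted p = 0.55). Slit2, needed for the corpus callosum to form, was at 11.47, 11.84, 11.96 and 12.17 in B6 mice and 11.32, 11.62, 11.82 and 11.63 in BTBR mice, ranges that overlapped (difference -0.26, 95% interval -0.61 to 0.09, limma adjusted p = 0.44), and its other 3 probes gave -0.17, -0.02 and -0.02. Their receptor Robo1 had a difference of 0.09 (95% interval -0.30 to 0.48, limma adjusted p = 0.84), and Slit3 one of -0.37 (limma adjusted p = 0.37). The other 3 Robos lay between -0.05 and 0.18.

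In the netrin group, Dcc, the receptor through which netrin-1 attracts commissural axons, had a lower mean in BTBR mice at its brightest probe. It measured 9.43, 9.40, 9.27 and 9.62 in B6 mice and 8.52, 9.21, 9.02 and 9.14 in BTBR mice, without overlap (difference -0.46, SE 0.15, 95% interval -0.79 to -0.12, limma adjusted p = 0.12). The other 3 Dcc probes gave 0.03, -0.11 and 0.06. Ntn1, the ligand of Dcc, could not be tested, since 1 of its probes stood well above background on a single BTBR array and the other on 2 arrays of each strain.

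Draxin, a secreted repellent that binds netrin-1 and Dcc, varied little between arrays. It was at 8.48, 8.48, 8.48 and 8.50 in B6 mice and 8.46, 8.57, 8.55 and 8.53 in BTBR mice, a difference of 0.04 (95% interval -0.08 to 0.16, limma adjusted p = 0.77). Unc5a, a receptor for repulsion by netrin, measured 15.65, 15.55, 15.84 and 15.77 in B6 mice and 15.13, 15.17, 15.40 and 15.60 in BTBR mice. Only BTBR array 4 reached the B6 range, and the difference of -0.37 (95% interval -0.64 to -0.11, limma adjusted p = 0.10) passed with the slide as a term in the model (limma adjusted p = 0.014).

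Ntng1 encodes netrin-G1, a membrane-anchored netrin relative of thalamic and other projection neurons. It measured 13.46, 12.56, 13.02 and 12.97 in B6 mice and 14.26, just over 12, 12.79 and 13.05 in BTBR mice, so that BTBR mice held both the highest and the lowest array. The difference was 0.02 (limma adjusted p = 0.99), and the other probes gave 0.18 and 0.16. The highest value was on BTBR array 1, which also had the highest summed level of thalamic markers. Whether thalamic tissue contributed to it was not tested. The other 6 genes of the netrin group had differences between -0.47 and 0.12.

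The spread among BTBR mice was wider than among B6 mice for most members. The SD was larger in BTBR mice for 57 of 69 genes (82.6%), where 69.1% of all genes had a larger SD in BTBR mice. The median SD of a member was 0.17 in B6 mice and 0.31 in BTBR mice, and over all genes 0.11 and 0.14. For the Eph receptors it was 0.19 in B6 mice and 0.49 in BTBR mice, and 10 of the 13 had the larger SD in BTBR mice. The ephrins had a median SD of 0.18 and 0.17, and 5 of the 7 had the larger SD in BTBR mice.

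Part of that spread followed the slides. BTBR arrays 1 and 2 were both below BTBR arrays 3 and 4 for 25 members (36.2%, against 24.6% of all genes) and both above them for 19 (27.5%, against 24.1%). Of the 13 Eph receptors 7 were below and 1 above, and of the 7 Slits and Robos 5 were below and 1 above. The plexins (2 below and 3 above of 9) and the netrin group (4 below and 3 above of 11) were divided. Both neuropilins were below, while of the 20 semaphorins 9 were above and 5 below, and of the 7 ephrins 2 were above and none below. In B6 mice the corresponding counts were 13 members below (18.8%, against 18.7% of all genes) and 5 above (7.25%, against 17.2%).

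The strain difference was therefore computed on each slide as well. It had opposite signs on the slides for 30 of 69 members (43.5%), near the 43.2% of all genes. An interaction between strain and slide reached an unadjusted p under 0.05 for 16 members (23.2%, against 10.9% of all genes), and for none after adjustment in limma. Within slide 1, 7 members were called (10.1%, against 9.28%), Ntn4 as higher and Epha4, Slit1, Slit3, Unc5a, Nrp1 and Plxna4 as lower, and within slide 2 only Ephb2 was called, as higher (1.45%, against 3.75%). With the slide as a term in the model, 4 members were called (5.80%, against 8.62%), Ntn4, Sema3d and Sema6c as higher and Unc5a as lower.

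**Figure D3:**
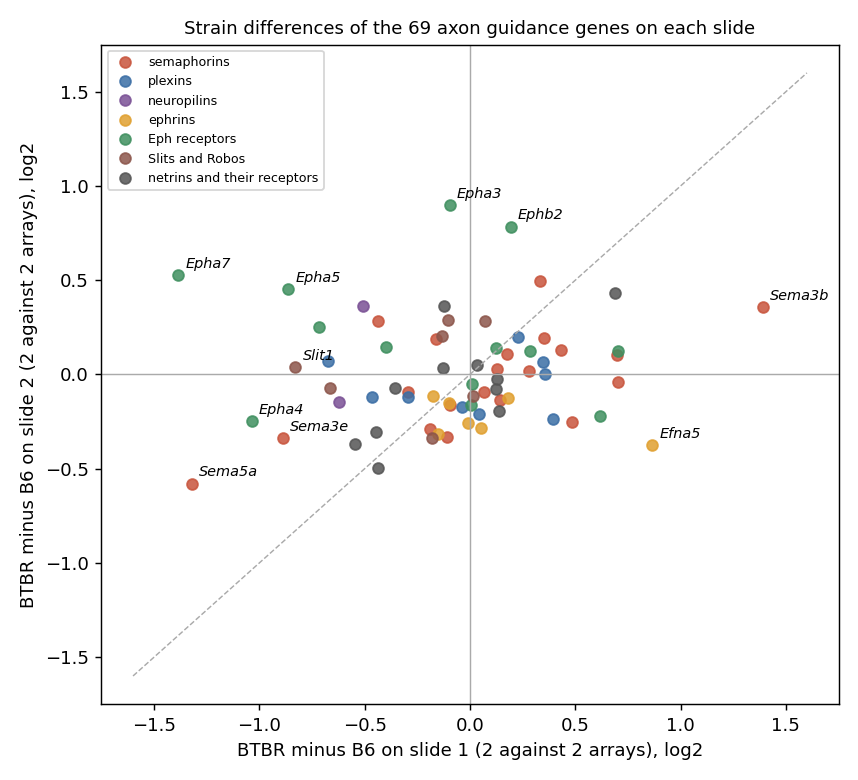
Difference between BTBR and B6 mice (log2) on slide 1 (horizontal axis) and slide 2 (vertical axis) for each of 69 axon guidance genes at the brightest probe, colored by family; the dashed line marks equal differences. Epha7 (-1.39 and 0.53) and Efna5 (0.86 and -0.38) lie on opposite sides of 0 on the 2 slides, and Sema5a and Sema3b keep their sign.

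The slides were not the only measure that moved with these arrays. The 6 CA1 pyramidal cell markers summed to 16.78 to 16.97 on the B6 arrays and to 16.18, 16.41, 17.33 and 17.07 on BTBR arrays 1 to 4, and the 5 CA3 markers tested to 16.79 to 17.19 and to 16.38, 15.90, 16.88 and 16.59. Among those lists limma called Gpr161 (CA1) as higher and Socs2 (CA3) as lower. All 8 dentate granule cell markers had a lower mean in BTBR mice, with sums of 15.67 to 16.42 in B6 mice and 15.35 to 15.85 in BTBR mice, and Trpc6 alone was called. BTBR arrays 1 and 2 thus had the lowest CA1 sums and, together with B6 array 2, the highest striatal sums. The part of the composition of the dissected tissue in the values of Epha4, Epha7, Slit1, Nrp2, Efna5 and Sema3b was not tested.

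All 11 thalamic markers tested had a higher mean in BTBR mice (median difference 0.74) and none of them was called. Of 9 striatal markers 7 had a higher mean (median 0.46, none called), and of 8 choroid plexus markers 7 had. The choroid plexus sums were 16.18, 16.91, 16.96 and 15.59 on B6 arrays 1 to 4 and 17.68, 17.58, 16.06 and 15.82 on BTBR arrays 1 to 4. Like Sema3b, they were highest on BTBR arrays 1 and 2 and lowest on B6 array 4. The sums of 5 CA2 markers (17.48 and 17.70, against 16.33 to 16.89 on the other arrays) and of 12 oligodendrocyte markers (18.94 and 19.17, against 18.28 to 18.69) were also highest on BTBR arrays 1 and 2, as were those of 7 cortical layer markers (14.71 and 14.74, against 13.48 to 14.49) and 5 subiculum markers (15.79 and 15.82, against 15.08 to 15.42). No marker of endothelium, meninges or oligodendrocytes was called. Of 9 microglial markers Cx3cr1 was called as higher and C1qb and Itgam as lower, and of 8 astrocyte markers Gfap was called as lower and 6 had a lower mean. Without the 3 arrays with the highest striatal or thalamic sums (B6 array 2, BTBR arrays 1 and 2), both remaining BTBR arrays are from slide 2 and 1 of the 3 B6 arrays from slide 1, so that strain and slide are partly confounded. In that comparison 3 members were called (4.35%, against 4.44% of all genes). The difference of Ntn4 was 0.46 (limma adjusted p = 0.043) and that of the called Nrp1 probe -0.89 (limma adjusted p = 0.031). Sema3d (0.19, limma adjusted p = 0.41) and the called Sema3c probe (-0.26, limma adjusted p = 0.28) did not pass there, while Ephb2 (0.84, limma adjusted p = 0.012) and Sema6c (0.54, limma adjusted p = 0.028) did.

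**Figure D4:**
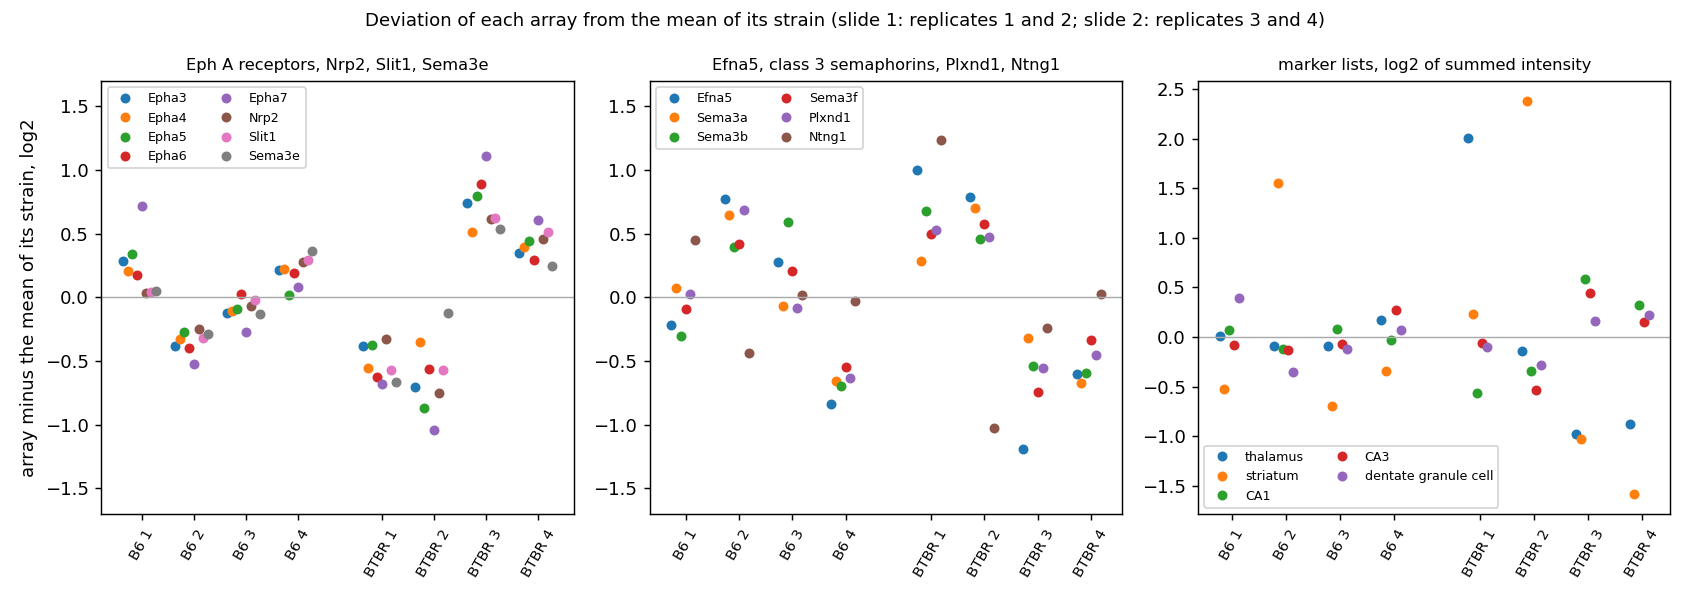
Deviation of each array from the mean of its strain (log2) for 14 axon guidance genes, picked after their values were seen, in the left and middle panels, and for the summed intensity of 5 marker lists in the right panel, which has its own vertical scale. Epha3, Epha4, Epha5, Epha6, Epha7, Nrp2, Slit1 and Sema3e lie below their strain mean on BTBR arrays 1 and 2 and above it on arrays 3 and 4, while Efna5, Sema3a, Sema3b, Sema3f and Plxnd1 do the reverse.

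Genes that act with these ligands and receptors were examined as 3 further lists. Of 55 downstream signaling genes, which link the receptors to kinases and the cytoskeleton, 2 were down-regulated and none up-regulated, and the median difference was 0.01. Srgap3, a GTPase-activating protein that binds Robo receptors, fell by 0.67 (SE 0.13, limma adjusted p = 0.013), although its second probe gave -0.07. The call of Srgap3 was lost in 2 of 22 alternatives, within slide 2 (limma adjusted p = 0.057) and without the 3 arrays (limma adjusted p = 0.11). Fes, a tyrosine kinase that acts downstream of plexins, fell by 0.35 (limma adjusted p = 0.040), and its second probe gave 0.10. The call of Fes was lost in 13 of 22 alternatives, with a limma adjusted p of up to 0.42.

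Of 32 other guidance cues and coreceptors, Neo1 alone was called. It encodes neogenin, a Dcc relative that binds netrins and repulsive guidance molecules, and rose by 0.58 (SE 0.13, limma adjusted p = 0.030) at its brightest probe, while its other probes gave 0.21, 0.13 and -0.03. The call of Neo1 was lost in 12 of 22 alternatives, with a limma adjusted p of up to 0.39. The median of that list was -0.03.

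Of 22 genes known for the forebrain commissures, Map1b alone was called. It encodes a microtubule-associated protein of growing axons and measured 13.39, 13.09, 13.32 and 13.32 in B6 mice and 15.72, 15.22, 15.56 and 15.61 in BTBR mice. The strains were far apart at this probe (difference 2.25, SE 0.12, limma adjusted p = 3.7e-06). At the second Map1b probe the difference was -0.14 (limma adjusted p = 0.51), so the large value rests on 1 of 2 probes. Over the 3 lists, 4 of 109 genes were called, 2 in each direction, with 54 higher and 55 lower, against 7.82% called among all genes.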

How the data were processed

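Hippocampal RNA of 4 BTBR and 4 B6 mice was measured on 8 single-color Agilent arrays. The spot intensity, local background and flags were deposited by the authors unscaled between arrays; the file headers give Feature Extraction 10.7.3.1 as the scanner software. The log2 matrix deposited by the authors was background subtracted and quantile normalized and was used as an alternative. Here each mean intensity was reduced by its median local background, raised to at least 0.5, increased by 50, log2 transformed and quantile normalized, which compresses the differences of dim probes. Replicate spots were averaged by their median. Control probes and 154 probes with outlier flags were left out, and 27982 of 41174 probes were kept as well above background on at least 75% of the arrays of a strain. A gene was represented by its brightest tested probe.

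BTBR was compared with B6 in limma 3.58.1 (R 4.3.3) by lmFit and eBayes, with Benjamini-Hochberg adjustment over all probes kept. The rank product used 100 permutations and a pfp of 0.05. Both were tested on simulated data without slide or tissue differences, with shifts larger than the difference of any member probe. The simulation therefore does not show how well differences of the size seen here are detected. With 4 arrays per strain, the number of arrays limits the precision.

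Members and lists were chosen with earlier results of these data known. The list is not a complete one of these families, and a gene left out of it is not reported here. Named were all members with a called probe, the member with the largest difference in each family, genes known for commissural axons (Dcc, Draxin, Slit2, Robo1, Nrp1, Sema3c, Sema3a, Efnb3, Epha4, Ephb1 and Ntn1) and the called genes of the 3 lists. Sema3b, Sema3e, Sema3f, Sema6c, Plxnb1, Plxnd1, Nrp2, Epha3, Epha5, Epha6, Epha7, Ephb2, Efna1, Efnb2, Efna2, Slit3, Ntng1 and Unc5a were named after their values were seen. Levels of different probes were not compared. Probe sequences and mm9 coordinates are those of the deposited scanner files. Alternatives were other background corrections, scalings, filters, probe choices, blocks and each array left out in turn. The omission of 3 arrays by their marker sums was chosen after seeing the data.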

Additional observations from a re-analysis of the deposited data

Results flagged for a closer look

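In 78 groups of 4 arrays (each named gene in each strain), 2 held an array far from the other 3, where chance gives about 1 in 20. Draxin in B6 mice had replicate 4 at 8.502, with the nearest other array at 8.481, and the gap took 0.855 of the range of the group. Efna1 in B6 mice had replicate 3 at 9.537, with the nearest other array at 9.340 and a gap of 0.844 of the range.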

How the results depend on the processing

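The signs of the Ntn4, Sema3d and called Nrp1 and Sema3c probe differences held under every alternative run, and so did those of Srgap3, Neo1, Fes and Map1b. The 2 members called by limma became 1 at an adjusted p under 0.01 and 4 under 0.10, 1 with median centring or without the filter on dim probes, and 0 where a probe had to be well above background on all 8 arrays, which left Ntn4 and Sema3d untested. They became 4 with the slide as a block (against 8.62% of all genes called), 7 within slide 1 (9.28%), 1 within slide 2 (3.75%), 4 when any probe of a gene counted (against 1849 of all 18399 genes), and 1 to 2 without single arrays. The 4 genes called in the 3 further lists became 1 at an adjusted p under 0.01, 7 under 0.10, 10 within slide 1, 1 within slide 2, 1 without the 3 arrays high in striatal or thalamic markers, and 2 to 6 without single arrays. The 2 genes called by the rank product became 0 at a pfp of 0.01 and 0 to 5 without single arrays. The median over the members was -0.05 to -0.02 without single arrays.

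For samples of the strains that share a replicate number, the deviations had correlations of -0.14, 0.51, -0.10 and 0.39. Samples with different numbers were not compared, so whether the numbers pair the samples was not settled. With the replicate block, 2 members were called (against 6.11% of all genes called), Ntn4 and Sema5a (-0.95, limma adjusted p = 0.031), Sema3d was not (limma adjusted p = 0.10), and 3 genes of the further lists were called.

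Differences that changed sign, none of them called over both slides by limma, were those of Ntng1 with the processed signal (-0.034) and median centring (-0.039), of Efnb2 with median centring (-0.014), and of Epha5 with the median over its probes (0.13). Within slide 1, Epha3 (-0.10) and Robo1 (-0.10) turned. Within slide 2 the values were 0.45 for Epha5, 0.25 for Epha6, 0.53 for Epha7, 0.040 for Slit1, -0.38 for Efna5, -0.13 for Efnb2, -0.075 for Ntng1, 0.36 for Nrp2, 0.069 for Plxna4 and -0.041 for Sema3f. Without the 3 arrays they were 0.33, 0.23, 0.26, 0.071, -0.40, -0.015, -0.23, 0.38, 0.13 and -0.067 for the same genes in that order, -0.065 for Plxnd1 and -0.13 for Sema3a. Without single arrays, Epha5 ranged from -0.47 to 0.085, Ephb1 from -0.048 to 0.24, Robo1 from -0.079 to 0.18, Efna5 from -0.090 to 0.64, Efnb2 from -0.087 to 0.20, Ntng1 from -0.39 to 0.37, Nrp2 from -0.28 to 0.18, Plxnd1 from -0.0056 to 0.44 and Sema3a from -0.086 to 0.37. The cause was not tested. Signal over background limits Ntn4, Sema3d and the called Nrp1 and Sema3c probes, each below the detection level on some arrays.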
